A study of Homo sapiens with 15 samples.

Results

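The neuroblastoma lines BE(2)-C and KELLY were set against each other across all genes, using the 3 arrays labelled BE(2)-C and the 3 labelled KELLY out of 15 arrays of 5 lines. The arrays were chosen by their labels alone, and all 12721 genes that passed a filter on dim signals entered the comparison. BE(2)-C is a clone of the line SK-N-BE(2), and KELLY is a separate line that carries an activating mutation of the receptor kinase ALK. Both lines carry an amplified MYCN gene, and neither received a treatment, so the groups differ in the line and in nothing else that the labels give. Both grew in DMEM with 10% fetal bovine serum. Cells were counted before lysis, when ERCC spike-in RNA was mixed in, and 100 ng of the RNA was labelled for hybridization. The series also holds SK-N-AS, SH-SY5Y and NGP, with 3 arrays each. Replicates carry numbers, but no label says that they came from separate cultures, so a p-value here reflects the spread between the arrays of a line, which may be technical.

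Neuroblastoma arises from the sympathoadrenal lineage of the neural crest, and most lines keep part of the noradrenergic programme of that lineage. Amplified MYCN encodes a transcription factor of the MYC family that binds E-box sequences and drives ribosome synthesis, metabolism and cell division. Lines that share the amplification still differ in transcription factors, secreted peptides, matrix and receptors, and those differences are described here.

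Arrays of a line were close to each other, and the lines stood clearly apart. Over the tested genes, arrays of BE(2)-C correlated at 0.9968 or above and arrays of KELLY at 0.9955 or above, while arrays of different lines correlated at 0.8803 to 0.8823. No 2 arrays were identical. The median intensity over all probe sets was 103, 103 and 102 on the BE(2)-C arrays and 66.7, 68.8 and 69.3 on the KELLY arrays, so the groups did not overlap. The deposited spike-in signal was nearly equal, with a median ERCC log2 value of 9.06 ± 0.06 in BE(2)-C and 8.98 ± 0.05 in KELLY. These are medians over the 33 ERCC probe sets above the intensity limit (SD over 3 arrays each). Whether the arrays had been scaled on the ERCC probe sets before deposit is not given in the sources used here. The part of such scaling in this near-equality was not tested. The median of the tested genes, less the ERCC median of the same array (log2), was -0.33, -0.35 and -0.48 in BE(2)-C, against -1.22, -1.20 and -1.25 in KELLY. BE(2)-C was therefore higher by 0.84 on the log2 scale, which is 1.79-fold, and an exact two-sided permutation test gave p = 0.1, the smallest p that 3 arrays against 3 allow. Set against 18 hybridization control probe sets in place of ERCC, the difference was 0.41. The ERCC probe sets themselves, relative to these controls, were at -2.02 ± 0.06 in BE(2)-C and -1.59 ± 0.10 in KELLY (SD over 3 arrays each). In such bulk samples, fewer cells and less RNA per cell cannot be told apart. For ACTB, the control probe sets at the 3' end exceeded those at the 5' end by 0.97 ± 0.07 in BE(2)-C and 1.08 ± 0.13 in KELLY, and for GAPDH the same measure was 0.18 ± 0.02 in BE(2)-C and 0.24 ± 0.02 in KELLY (SD over 3 arrays each, log2). The part of RNA quality in the results was not tested.

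Because most genes were brighter in BE(2)-C as deposited, differences are given on 2 scales. On the deposited scale, values are log2(intensity + 1), and the median difference over the tested genes was 0.81. On the centred scale, the median of the tested genes was first subtracted from each array, so that a difference is relative to the typical gene. A gene was called when its absolute log2 difference was at least 1 and its limma p-value, adjusted by Benjamini-Hochberg over all tested genes, was under 0.05. On the centred scale 1064 genes were called higher in BE(2)-C, which is 8.36% of those tested, and 1152 were called lower, which is 9.06%. On the deposited scale 4985 genes, or 39.2%, were called higher, and 425, or 3.34%, were called lower. The 1064 genes higher after centring were called higher as deposited too, and all 425 lower as deposited were lower after centring. The remaining 727 genes were lower only relative to the typical gene. Of all calls, 48.0% were higher on the centred scale and 92.1% on the deposited scale. In each of the 2216 genes called after centring, the centred values of the 3 arrays of BE(2)-C did not overlap with the 3 of KELLY. The choice of the genes by this contrast makes such separation likely, and no share over all tested genes is set beside it. It is therefore a description, here and for single genes below, and adds no support to the calls. Centred differences of 3 or more on the log2 scale were reached by 75 called genes that were higher and 163 that were lower in BE(2)-C. These 2 counts depend on the scale, since deposited differences are shifted upward against centred ones.

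**Figure D1:**
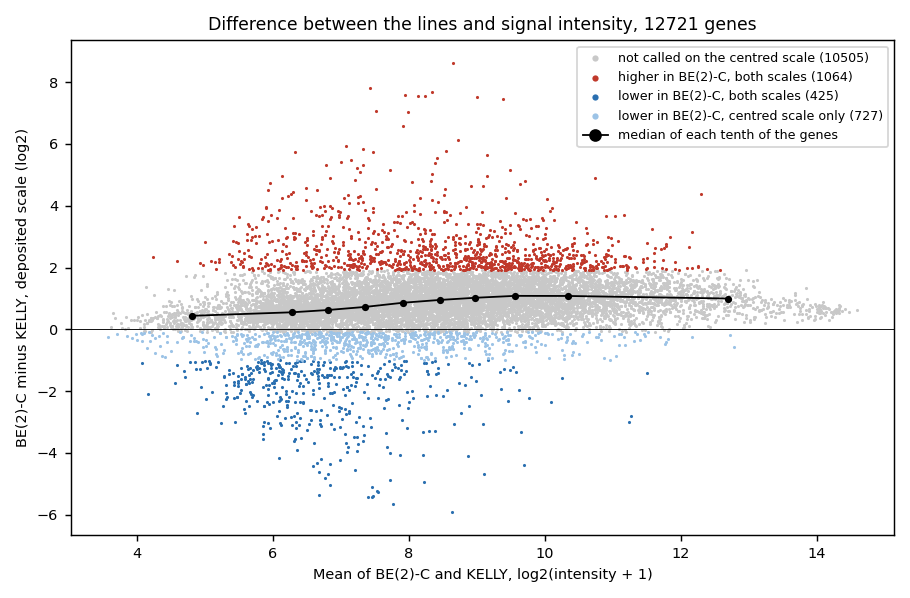
Difference between BE(2)-C and KELLY for each tested gene as deposited (vertical axis, log2) against the mean of both lines (horizontal axis, log2(intensity + 1)); black dots are the medians of 10 groups of genes of rising intensity. The median difference runs from 0.44 in the dimmest group to 1.08 in the eighth, and the genes called lower on both scales lie mostly at the dim end.

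The shift between the lines grew with intensity. With the genes in 10 groups of rising intensity, the median deposited difference was 0.44 in the dimmest group and 1.08 in the eighth, as the plot of difference against intensity shows. Centring by a single value therefore leaves dim genes with differences below 0, and the median centred difference over all tested genes was -0.10. Of 1164 genes under the intensity limit of 80.6 in both lines, 173 were called lower and 9 higher after centring. For this reason the lists are given with the number of their lower members that were lower on both scales. No detection calls were used here, and a log2 difference from so dim a signal can understate the change.

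Both lines carried the markers of their lineage and their genotype. MYCN was read at 13184, 13649 and 14233 in BE(2)-C and at 9253, 9551 and 9286 in KELLY. The lines without the amplification were dim for it, with means of 78.8 (SK-N-AS) and 152 (SH-SY5Y). Its difference was -0.37 centred (SE 0.12, limma adjusted p = 0.0084) and 0.55 as deposited, so its sign turned with the scale and it was not called on either. The other family members, MYC and MYCL, were brighter in BE(2)-C as deposited, just above the intensity limit of 80.6 there and under it in KELLY. Neither was called after centring, and MYCL had a centred difference of 0.57. MYC had a mean intensity of 81.0 ± 12.7 in BE(2)-C and 30.2 ± 1.72 in KELLY, and MYCL of 95.7 ± 7.53 in BE(2)-C and 33.6 ± 4.59 in KELLY (SD over 3 arrays each). HAND2, a transcription factor of sympathetic neurons, had 11404 ± 309 in BE(2)-C and 8162 ± 409 in KELLY. GATA3, another factor of that lineage, had 2267 ± 111 in BE(2)-C and 2406 ± 120 in KELLY, a centred difference just short of the threshold. PHOX2A had 2422 ± 125 in BE(2)-C and 1203 ± 56.3 in KELLY, a centred difference of 0.10. DBH, which makes noradrenaline from dopamine, had 2203 ± 43.2 in BE(2)-C and 2277 ± 53.2 in KELLY. TH, the first enzyme of that pathway, was called lower after centring, with 842, 730 and 754 in BE(2)-C against 1432, 1463 and 1495 in KELLY. ALK itself had 234 ± 6.44 in BE(2)-C and 214 ± 12.1 in KELLY (SD over 3 arrays each), with a deposited difference of 0.13 (limma adjusted p = 0.28) and a centred one of -0.78, below the threshold.

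The genes with the largest positive differences were bright in BE(2)-C and very dim in KELLY. S100A6 (chromosome 1), a calcium-binding protein of the S100 family, led with 8095, 7633 and 8226 in BE(2)-C against 16.2, 22.6 and 19.5 in KELLY. All 3 BE(2)-C arrays were bright, and the centred difference of 7.71 (SE 0.13, limma adjusted p = 4.58e-18) is 209-fold. EDIL3, a secreted integrin ligand, had 3203, 2230 and 2361 in BE(2)-C and 9.42, 9.57 and 12.8 in KELLY, a difference of 6.89 in which the first BE(2)-C array stood highest. PTGER2, a receptor for prostaglandin E2, had 4750, 4558 and 4554 in BE(2)-C and 21.7, 18.9 and 24.6 in KELLY. Its difference of 6.76 is 109-fold, and its signal was dim in the NGP and SH-SY5Y lines as well, at means of 35.8 and 27.4. RELN, which encodes the secreted guidance protein reelin, had 4541, 4008 and 3877 in BE(2)-C and 21.2, 18 and 23.8 in KELLY. VIP, a neuropeptide that acts on cAMP-coupled receptors, had 7330, 6804 and 6729 in BE(2)-C and 37.7, 34.0 and 39.3 in KELLY. IL13RA2, a decoy receptor for interleukin-13, had 8376, 8939 and 9107 in BE(2)-C and 49.4, 53.9 and 45.0 in KELLY. None of these 3 overlapped between the lines, and their centred differences were 6.65, 6.60 and 6.54. The other members of the 15 with the largest difference were B3GALNT1, a glycosyltransferase, at 6.67, ENPP2, which makes lysophosphatidic acid, at 6.63, TSPYL5 at 6.16 and S100A11, a second S100 protein, at 6.13. The complement component C7 stood at 5.67, the actin-binding SYNPO2 at 5.2, the matrix proteoglycan LUM at 5.01, the actin-binding COTL1 at 4.93 and the heparan sulfate sulfotransferase HS3ST2 at 4.85.

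In the opposite direction, the leading genes were very dim in BE(2)-C and of middle brightness in KELLY. CNTNAP2 (chromosome 7), a neurexin-family adhesion protein of axons, had 54.1, 48.2 and 48.4 in BE(2)-C against 2449, 3267 and 3656 in KELLY. The difference of -6.83 (SE 0.17, limma adjusted p = 5.21e-16) is 113-fold, and the KELLY arrays spread more than those of BE(2)-C. TRIM29, a tripartite-motif protein of epithelia, had 26.9, 28.5 and 33.9 in BE(2)-C and 1538, 1585 and 1499 in KELLY. In SK-N-AS, SH-SY5Y and NGP its means were 24.2, 21.0 and 24.8, so that of the 5 lines KELLY alone was bright for it. PEG3, an imprinted zinc-finger gene expressed from the paternal copy, had 18.9, 27.6 and 32.9 in BE(2)-C and 1166, 1087 and 1180 in KELLY. PLOD2, a collagen lysyl hydroxylase, had a mean of 25.1 ± 4.67 in BE(2)-C and 1101 ± 135 in KELLY (SD over 3 arrays each). The membrane-skeleton protein EPB41L3 had 20.7, 26.1 and 33.9 in BE(2)-C and 1122, 1193 and 1168 in KELLY. In all of these genes every KELLY array was brighter than every BE(2)-C array. MAGEA1, a cancer-testis antigen on the X chromosome, had 13.7, 17.6 and 13.8 in BE(2)-C and 636, 677 and 661 in KELLY, a difference of -6.28. The kinase STK26 followed at -6.16, the secreted NELL2 at -6.15, the desmosomal cadherin DSG2 at -6.02 and the focal adhesion scaffold NEDD9 at -5.96. The imprinted MEST stood at -5.86, BMP7, a ligand of the bone morphogenetic protein family, at -5.80, the synaptic adhesion protein NLGN4X at -5.71, the peptide hormone CRH at -5.61 and TMEM47 at -5.58. CRH also varied among the other lines, with means of 108 in BE(2)-C, 2817 in KELLY, 23628 in the SK-N-AS line and 36.9 in NGP.

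**Figure D2:**
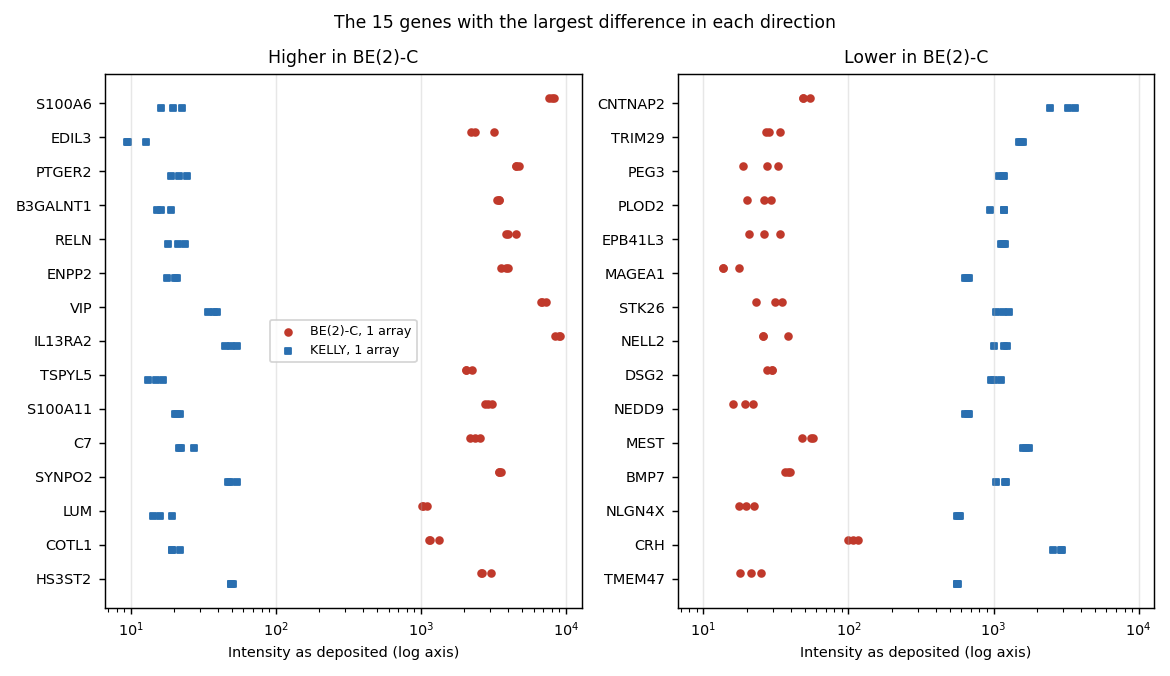
Deposited intensity (log axis) on each array for the 15 genes with the largest difference in each direction among genes called on both scales; circles are BE(2)-C arrays and squares KELLY arrays. In every gene the 3 arrays of a line cluster together and the lines are far apart, from S100A6 at the top of one panel to TMEM47 at the bottom of the other.

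Other probe sets of these 30 genes mostly showed the same direction. The 30 genes had 69 further probe sets. On the centred scale, 67 of these had the same sign and 63 the same sign and a difference of at least 1. Of the 30 genes, 7, S100A6 among them, were read by a single probe set. The exceptions were a probe set of EDIL3 with means of 20.1 in BE(2)-C and 17.5 in KELLY and a probe set of SYNPO2 with 134 in BE(2)-C and 76.7 in KELLY.

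The promoters of 4 of the genes that the results turn on are shown. S100A6 and VIP, both with large differences in the same direction, differed in how their promoters are built. LDHA and CNTNAP2 were lower in BE(2)-C. Each sequence is RefSeq's, build GRCh38.p14, from 250 bases before to 50 after the gene's start, 5′ to 3′ on the gene's strand. Capitals mark CpG dinucleotides, the sites that DNA methylation acts on. The stretches are S100A6 at chr1:153535942-153536241 (minus strand), VIP at chr6:152750547-152750846 (plus strand), LDHA, a lactate dehydrogenase gene described with glycolysis, at chr11:18394313-18394612 (plus strand) and CNTNAP2 at chr7:146116551-146116850 (plus strand).
S100A6: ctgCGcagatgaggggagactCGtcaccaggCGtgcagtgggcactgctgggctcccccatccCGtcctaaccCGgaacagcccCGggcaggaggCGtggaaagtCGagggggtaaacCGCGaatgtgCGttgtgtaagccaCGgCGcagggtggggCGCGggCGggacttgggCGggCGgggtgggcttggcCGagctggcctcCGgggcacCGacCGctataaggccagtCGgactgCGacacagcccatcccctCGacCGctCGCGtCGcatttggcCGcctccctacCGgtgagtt
VIP: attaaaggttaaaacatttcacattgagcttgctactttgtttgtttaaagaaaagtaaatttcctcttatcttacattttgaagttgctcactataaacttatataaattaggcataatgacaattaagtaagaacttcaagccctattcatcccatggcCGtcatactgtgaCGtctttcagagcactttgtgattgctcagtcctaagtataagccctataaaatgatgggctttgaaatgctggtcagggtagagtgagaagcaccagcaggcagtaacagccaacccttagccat
LDHA: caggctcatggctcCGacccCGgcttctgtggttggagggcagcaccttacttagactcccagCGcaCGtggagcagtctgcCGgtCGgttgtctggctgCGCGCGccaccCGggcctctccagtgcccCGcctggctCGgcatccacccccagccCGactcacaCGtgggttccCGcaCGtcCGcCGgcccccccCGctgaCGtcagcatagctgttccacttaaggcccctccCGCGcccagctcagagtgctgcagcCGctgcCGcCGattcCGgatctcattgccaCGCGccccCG
CNTNAP2: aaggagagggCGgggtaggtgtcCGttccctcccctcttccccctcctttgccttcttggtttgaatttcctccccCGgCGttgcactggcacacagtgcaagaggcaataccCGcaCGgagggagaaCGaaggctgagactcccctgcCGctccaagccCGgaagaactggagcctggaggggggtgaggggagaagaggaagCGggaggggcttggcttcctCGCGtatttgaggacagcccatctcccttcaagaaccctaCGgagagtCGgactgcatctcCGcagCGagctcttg
S100A6 holds 31 CpG and VIP only 2, although the genes were among the 7 with the largest differences in the same direction. LDHA holds 29 and CNTNAP2 holds 16. Of the 12721 tested genes, 10408 had a promoter in the table, with a median of 26 CpG and 12.6% under 10. Among the 866 matched genes called higher in BE(2)-C the median was 28 and 12.0% had under 10, close to all tested genes. Among the 331 matched genes called lower on both scales the median was 24 and 18.4% had under 10. For centred differences of at least 3, the share under 10 was 23.8% of 63 matched genes that were higher and 22.1% of 127 that were lower. The motif TGACGTC, the core of the cAMP response element, was searched on both strands after the sequences had been seen. It is present in the promoters of VIP and LDHA, and in 5.77% of the genes called higher, 4.53% of those lower on both scales and 5.5% of all matched genes. The E-box CACGTG, to which MYC proteins bind and which reads the same on both strands, occurs at 2 places in the LDHA promoter. None of the motifs searched contains another. CACGTG was found in 9.12% of the promoters of genes called higher, 10.6% of those lower on both scales and 10.1% of all matched promoters.

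Genes were grouped into 43 lists, which are described by how many of their tested members were called and by the median of their centred differences. Against a background of 8.36% called higher and 9.06% called lower, the cholesterol synthesis list had 14 of 23 members higher and 0 lower. Secretory granule and neuropeptide genes followed with 8 of 18 higher and 5 lower, and annexins and S100 proteins with 6 of 17 higher and 1 lower. Among lists with many lower members were imprinted genes (6 of 17 lower, all 6 on both scales), germline genes (6 of 13 lower, 5 on both scales) and glucose uptake and glycolysis (8 of 26 lower, 5 on both scales). Ribosome biogenesis and the respiratory chain had 0 members called after centring. With the probe sets of a gene averaged instead of the brightest taken, the higher calls fell to 5 among integrins, cadherins and actin adhesion genes, 4 among other receptor kinases, 2 in antigen presentation and 1 in retinoic acid signalling, and the lower calls to 2 among WNT genes and 2 among stress genes.

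**Figure D3:**
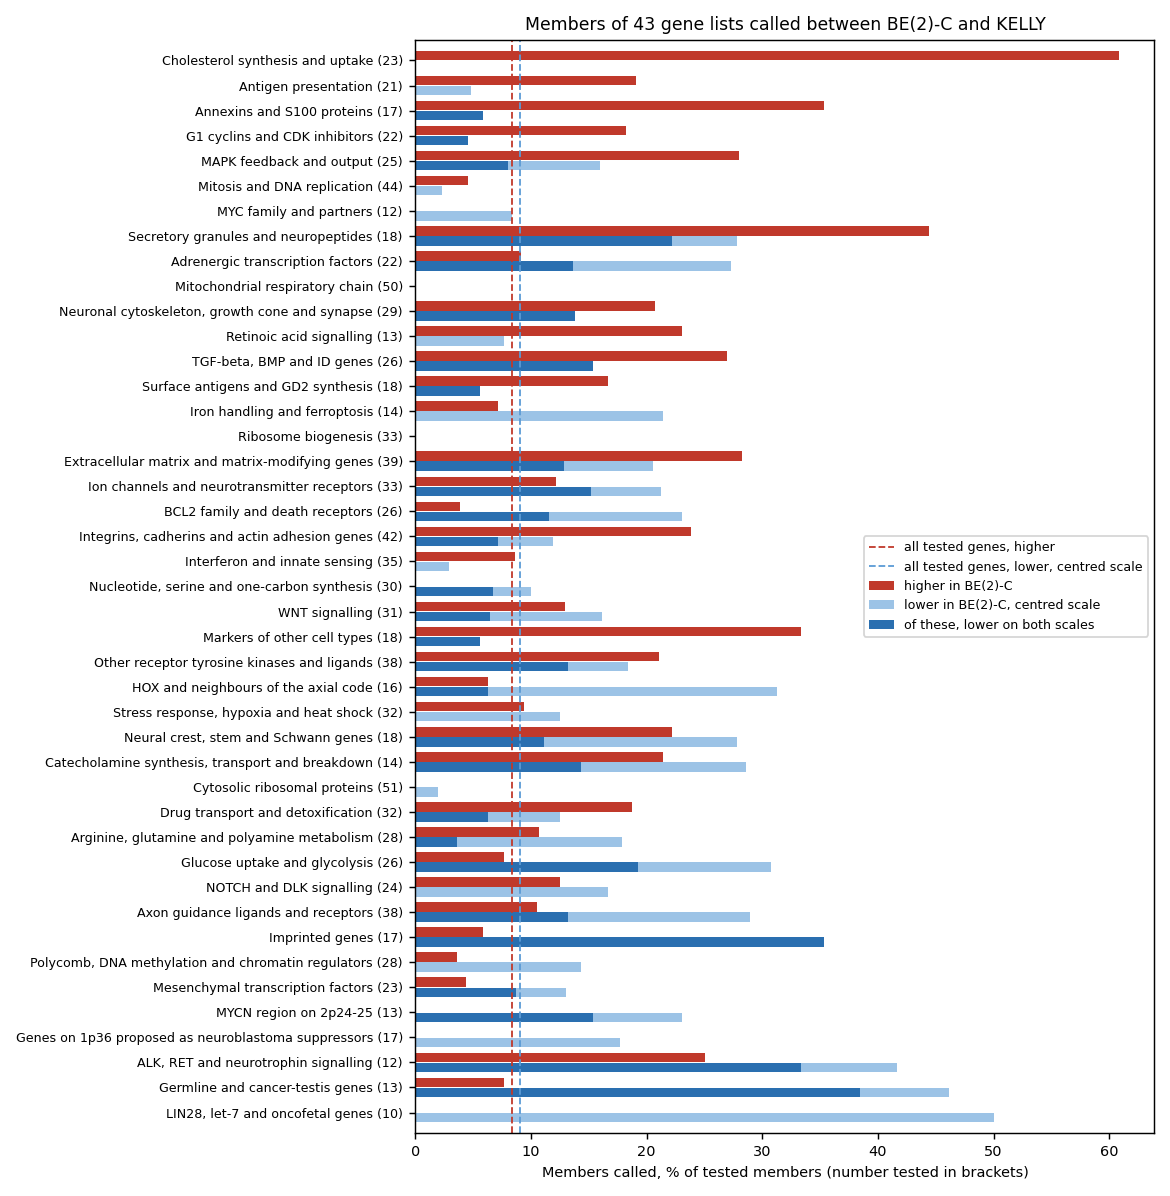
Share of tested members called higher in BE(2)-C (red) or lower (light blue; dark blue for the part lower on both scales) in 43 gene lists, ordered by the median centred difference, with the number tested in brackets. Dashed lines give the share over all tested genes, 8.36% higher and 9.06% lower; cholesterol synthesis tops the list with 14 of 23 members higher.

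Transcription factors of the adrenergic state differed in single members. Of 22 tested, 2 were higher and 6 lower, 3 of them on both scales, and the median centred difference was 0.16. SOX11, a transcription factor of neural progenitors, had 45.2, 42.3 and 70.9 in BE(2)-C against 868, 846 and 816 in KELLY, a difference of -4.92. BE(2)-C was the lowest of the 5 lines for it. INSM1, a zinc-finger factor of neuroendocrine cells, had 57.3 ± 3.24 in BE(2)-C and 176 ± 6.61 in KELLY. LMO1, a LIM-domain cofactor known as a neuroblastoma susceptibility gene, had 84.5 ± 7.21 in BE(2)-C and 248 ± 26.3 in KELLY (SD over 3 arrays each). SATB1, TBX2 and MEIS1 were lower only after centring. The 2 higher members were KLF7, with 3229 ± 95.3 in BE(2)-C and 717 ± 46.1 in KELLY, and EYA1, with 1486 ± 52 in BE(2)-C and 367 ± 15.3 in KELLY. Of 23 mesenchymal transcription factors, 1 was higher and 3 lower, 2 on both scales. The higher one was ZEB2, with 423 ± 44.5 in BE(2)-C and 96.2 ± 13 in KELLY, and the glucocorticoid receptor gene NR3C1 was lower on both scales, with 48.2 ± 5.96 in BE(2)-C and 140 ± 12.8 in KELLY. HOX genes and their axial neighbours had 1 of 16 members higher and 5 lower, 1 on both scales. HOXC10 was the higher one, with 431 ± 16.1 in BE(2)-C and 25.9 ± 1.13 in KELLY, and HOXD13 was lower on both scales, with 69.9 ± 9.61 in BE(2)-C and 276 ± 14.9 in KELLY (SD over 3 arrays each).

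Next to MYCN on chromosome 2, the lines differed at CYRIA, which lies beside MYCN and encodes a regulator of the actin cytoskeleton. It had 23.8, 23.5 and 23.2 in BE(2)-C and 426, 463 and 441 in KELLY, a centred difference of -5.10, and NGP was brighter still, with a mean of 2349. Of 13 tested genes of the region, 0 were higher and 3 lower, the others being KLF11 (-2.31), lower on both scales, and ODC1 (-1.15), lower only after centring. DDX1, often co-amplified with MYCN, had 4984 ± 654 in BE(2)-C and 3026 ± 322 in KELLY, and NBAS, another neighbour, had 1334 ± 38.8 in BE(2)-C and 1271 ± 41.0 in KELLY. Neither was called. Of 12 members of the MYC network, only the antagonist MXI1 was called after centring, at -1.06, and it was not called as deposited. On the deposited scale 7 of the 12 were called higher, against 39.2% of all tested genes.

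Catecholamine genes differed in both directions. Of 14 tested, 3 were higher and 4 lower, 2 of them on both scales, with a median of -0.28. The higher ones supply tetrahydrobiopterin, the cofactor of TH, or take up noradrenaline. GCH1, the first enzyme of cofactor synthesis, had 2395, 2284 and 2309 in BE(2)-C and 228, 221 and 216 in KELLY. PTS, the next enzyme, had 3715 ± 231 in BE(2)-C and 800 ± 39.6 in KELLY, and the noradrenaline transporter SLC6A2 had 2382 ± 84.0 in BE(2)-C and 386 ± 8.55 in KELLY (SD over 3 arrays each). The lower ones were TH, both vesicular transporters and a breakdown enzyme. SLC18A2, a vesicular monoamine transporter, had 200, 181 and 182 in BE(2)-C and 1568, 1557 and 1635 in KELLY. MAOA, the monoamine oxidase that degrades noradrenaline, had 86.1, 90.4 and 71.4 in BE(2)-C and 763, 727 and 788 in KELLY. Centred differences were 2.47 for GCH1, -3.99 for SLC18A2 and -4.10 for MAOA. SLC18A1, the other vesicular transporter, and TH were lower only after centring.

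Genes of the secretory programme differed in both directions. Of 18 tested granule and neuropeptide genes, 8 were higher and 5 lower, 4 of them on both scales, and the median was 0.16. Besides VIP, the higher members were NPY (3.90), NMU (3.59), VGF (3.01), CALCB (2.14), SCG2 (1.94), CHGB (1.12) and PCSK1N (1.05). NPY, the peptide that sympathetic nerves release with noradrenaline, had 4430, 4568 and 4267 in BE(2)-C and 146, 153 and 170 in KELLY. VGF, a granule protein induced by neurotrophins, had 4546, 4281 and 4016 in BE(2)-C and 254, 286 and 304 in KELLY. Somatostatin went the other way: SST had 43.0, 30.9 and 34.5 in BE(2)-C and 506, 523 and 522 in KELLY. CPE, the carboxypeptidase that trims peptide precursors, had 86.7, 81.0 and 86.8 in BE(2)-C and 619, 682 and 681 in KELLY. CARTPT and PENK, both peptide precursors, were lower on both scales at -3.17 and -2.44, and galanin, GAL, was lower only after centring. The granule core protein CHGA had 16971 ± 797 in BE(2)-C and 13305 ± 846 in KELLY (SD over 3 arrays each) and was not called.

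Neuronal structural genes had 6 of 29 members higher and 4 lower, with a median of 0.10. Neurofilament genes were divided. The light and medium chains were higher, with 13696 ± 314 in BE(2)-C and 1528 ± 73.6 in KELLY for NEFL and 9441 ± 740 in BE(2)-C and 989 ± 45.2 in KELLY for NEFM. The heavy chain NEFH was lower, with 285 ± 29.6 in BE(2)-C and 822 ± 52.3 in KELLY (SD over 3 arrays each). DPYSL3 and CRMP1, cytoplasmic partners of semaphorin signalling, were higher at 1.67 and 1.08, as were the adhesion protein L1CAM (1.34) and the RNA-binding ELAVL4 (1.1). The related ELAVL2 was lower on both scales at -2.28, with the splicing factor RBFOX1 at -1.98 and the microtubule regulator STMN4 at -2.68. Axon guidance genes had 4 of 38 higher and 11 lower, 5 on both scales, and a median of -0.33. With the probe sets of a gene averaged, 0 were higher and 5 lower. Ion channels and neurotransmitter receptors had 4 of 33 higher and 7 lower, 5 on both scales. The AMPA receptor subunits differed in direction, since GRIA2 (-3.13) and GRIA1 (-2.56) were lower on both scales and GRIA4 (1.21) was higher.

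Among neural crest, stem and Schwann genes, 4 of 18 were higher and 5 lower, 2 on both scales. Vimentin, an intermediate filament of mesenchymal and neural crest cells, stood first. VIM had 4091, 4125 and 3939 in BE(2)-C and 139, 154 and 175 in KELLY, a difference of 3.78, and KELLY was the lowest of the 5 lines. SOX4 had 9153 ± 232 in BE(2)-C and 1352 ± 113 in KELLY (SD over 3 arrays each), so that of the related factors SOX4 and SOX11 each line was higher for a different one. S100B and MSX2 were also higher, at 1.84 and 1.68. The integrin ITGA4 and the orphan receptor GPRC5C were lower on both scales, at -2.42 and -1.94.

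Receptor genes and their ligands differed in both directions. Of 12 tested genes of ALK, RET and neurotrophin signalling, 3 were higher and 5 lower, 4 of them on both scales. The growth factors pleiotrophin and midkine, which form a family of their own, were opposite. PTN had 2346, 1978 and 1969 in BE(2)-C and 189, 210 and 233 in KELLY, a difference of 2.40, and MDK had 410, 401 and 388 in BE(2)-C and 1729, 1953 and 1976 in KELLY, a difference of -3.15. RET, the receptor kinase for ligands of the GDNF family, had 4953, 4835 and 4581 in BE(2)-C and 1189, 1174 and 1217 in KELLY. Its coreceptors for GDNF and neurturin were lower on both scales, GFRA1 at -3.02 and GFRA2 at -2.58, and its artemin coreceptor GFRA3 was higher at 1.31. ALKAL1, a ligand of ALK, was dim, at 29.0 ± 2.55 in BE(2)-C and 91.2 ± 7.42 in KELLY. BDNF was lower only after centring. Of 38 other receptor kinase genes and ligands, 8 were higher and 7 lower, 5 on both scales. The insulin receptor INSR had 484, 410 and 420 in BE(2)-C and 20.7, 14.8 and 16.9 in KELLY, and KELLY was the only line under 100 for it. ROR2 (2.88), a receptor for WNT5A, IGFBP5 (2.63), PDGFRA (1.54) and PDGFRB (1.30) were also higher. PDGFRA and PDGFRB each had 2 dimmer probe sets of the opposite sign after centring. MET, the receptor for hepatocyte growth factor, had 29.6, 31.1 and 29.7 in BE(2)-C and 253, 208 and 220 in KELLY, and its ligand HGF was lower as well, at -2.36.

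Output genes of the MAPK pathway had 7 of 25 members higher and 4 lower, 2 on both scales, with a median of 0.37. PHLDA1, an immediate early gene, had 2399, 2364 and 2231 in BE(2)-C and 47.8, 51.4 and 48.5 in KELLY, a difference of 4.62. The early response gene IER3 (2.90), the transcription factors EGR3 (2.74), ETV4 (2.52) and ETV1 (1.63), and the feedback inhibitors SPRY4 (1.85) and DUSP6 (1.24) were higher too. The phosphatase DUSP2 (-2.96) and the RAS inhibitor NF1 were lower on both scales. NF1 had 71.8, 93.0 and 102 in BE(2)-C and 217, 178 and 214 in KELLY, a difference of -2.10, and BE(2)-C was the lowest of the 5 lines. A dimmer NF1 probe set had the opposite sign, with means of 47.5 in BE(2)-C and 17.4 in KELLY, a centred difference of 0.51. JUN and SPRY1 were lower only after centring. EGR3 had 3 dim probe sets of the opposite sign after centring, each of them brighter in BE(2)-C as deposited. FOS, with a centred difference of 0.15, and EGR1, with 0.49, were higher as deposited and not called after centring.

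Developmental signalling showed single genes with large differences. NOTCH genes had 3 of 24 higher and 4 lower, 0 of them on both scales, and the effector HES1 had 707, 660 and 658 in BE(2)-C and 42.4, 43.0 and 28.7 in KELLY. WNT genes had 4 of 31 higher and 5 lower, 2 on both scales. LGR5, a receptor that strengthens WNT signals, had 1085, 1020 and 954 in BE(2)-C and 19, 29.1 and 25.9 in KELLY. FZD7 (2.92) and the secreted inhibitor DKK1 (1.73) were higher, and AXIN2, a target and feedback inhibitor of the pathway, was lower on both scales at -2.47. TGF-beta and BMP genes had 7 of 26 higher and 4 lower, all 4 on both scales. The receptors ACVR1 (1.70), TGFBR2 (1.52) and BMPR2 (1.42) and the ligands BMP2 (1.96) and INHBA (1.51) were higher, while BMP7 (-5.80), ID4 (-2.37), the receptor ACVR2B (-2.20) and the coreceptor TGFBR3 (-1.95) were lower. Retinoic acid genes had 3 of 13 higher and 1 lower only after centring, with the retinaldehyde dehydrogenase ALDH1A3 at 1.85.

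Matrix and adhesion genes were called in both directions, and the lower ones included large glycoproteins. Of 39 matrix genes, 11 were higher and 8 lower, 5 of them on both scales, with a median of -0.08. LUM had 1102, 1040 and 1023 in BE(2)-C and 15.9, 14.2 and 19.2 in KELLY. The metalloproteinase inhibitors TIMP3 (2.72) and TIMP2 (1.86), the fibrillar collagen COL3A1 (1.91), the proteoglycan DCN (1.86) and the gelatinase MMP2 (1.85) were higher. Fibronectin, FN1, was lower, with 49.7, 49.2 and 58.1 in BE(2)-C and 416, 464 and 388 in KELLY. The laminin chain LAMA1 (-5.13), the collagen COL6A3 (-4.07), THBS2 (-4.05) and the proteoglycan VCAN (-3.24) were lower on both scales. Integrins, cadherins and actin adhesion genes had 10 of 42 higher and 5 lower, 3 on both scales. Among them ITGA9 was higher at 2.52, and the protocadherin PCDH19, which had 21.9, 20.9 and 22.2 in BE(2)-C and 266, 291 and 280 in KELLY, was lower.

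Annexins and S100 proteins bind membranes and partner proteins when calcium rises, and 6 of 17 were higher and 1 lower, with a median of 0.49. S100A6 and S100A11 led, followed by S100A4, with 3228, 3214 and 3130 in BE(2)-C and 96.0, 102 and 105 in KELLY. S100A10 had 648, 623 and 599 in BE(2)-C and 20.9, 16.7 and 23.1 in KELLY, and its binding partner ANXA2 had 7948, 7401 and 7004 in BE(2)-C and 569, 607 and 586 in KELLY. In none of these genes did the lines overlap. ANXA5 was higher at 1.35. S100A13 was the exception, with 203, 202 and 192 in BE(2)-C and 1043, 1121 and 1167 in KELLY, a difference of -3.39. ANXA1, a marker of mesenchymal lines, was dim in both, at 25.8 in BE(2)-C and 22.7 in KELLY.

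Cholesterol synthesis had the highest median and the largest share of members called higher of the 43 lists. Of 23 tested genes, 14 were called higher in BE(2)-C and 0 lower, 22 had a centred difference above 0, and the median was 1.11 against -0.10 over all tested genes. The enzymes spanned the pathway. HMGCS1, which feeds HMG-CoA to the rate-limiting reductase, had 1915, 1837 and 1766 in BE(2)-C and 262, 189 and 251 in KELLY, a difference of 2.07. IDI1, an isoprenoid isomerase, had 1934, 1712 and 1737 in BE(2)-C and 252, 288 and 246 in KELLY, a difference of 1.86. FDPS (1.44), SQLE (1.34), LSS (1.09), NSDHL (1.36), MSMO1 (1.5) and EBP (1.11) catalyse later steps and were higher too. The regulator INSIG1, which holds SREBP proteins in the endoplasmic reticulum and is itself induced by them, had 2318, 2396 and 2423 in BE(2)-C and 479, 410 and 445 in KELLY. SREBF1, which encodes an SREBP transcription factor, was higher at 1.43, SREBF2 had 0.51, and TM7SF2 was the only member below 0, at -0.52. For the fatty acid enzymes counted with this list, SCD (1.12) and ACACA (1.12) were called and FASN (0.25) was called only as deposited. The number called was 11 after cyclic loess normalization, 10 after quantile normalization and 10 when the probe sets of a gene were averaged. The sterol response element TCACNCCAC, searched on both strands, was in 0 of the 13 matched promoters of these higher genes and in 1.06% of all matched promoters. It was in 1 of the 21 matched promoters of the tested list. For so rare a motif, 0 among 13 promoters cannot show a lack of it.

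Several glycolytic genes were lower in BE(2)-C, and the lactate step differed most among the enzymes of the pathway itself. Of 26 tested, 2 were higher and 8 lower, 5 of them on both scales, with a median of -0.31. LDHA, which turns pyruvate into lactate, had 955, 917 and 927 in BE(2)-C against 6264, 6381 and 6861 in KELLY. The lines were far apart, the difference of -3.71 (SE 0.04) is 13.1-fold, and BE(2)-C was the lowest of the 5 lines, the others having means from 5589 to 19531. PDK1, a kinase that shuts pyruvate dehydrogenase, had 75.9, 61.1 and 53.1 in BE(2)-C and 635, 666 and 643 in KELLY, and PDK4 was lower at -3.09. PFKFB4 (-2.16) was lower and PFKFB3 (2.31) higher, both of them enzymes that set the level of a phosphofructokinase activator. PFKFB3 had -0.18 when probe sets that may match related transcripts were left out, and with averaged probe sets 0 members of the list were higher. SLC2A1, the main glucose transporter of many tumours, had 752 ± 25.9 in BE(2)-C and 1056 ± 13.8 in KELLY (SD over 3 arrays each) and was lower only after centring. The transporter SLC2A6 was higher at 2.08. Among the central enzymes, ENO3 was lower on both scales and PFKP and ENO2 only after centring. Others were not called after centring, with differences of -0.25 for GAPDH, -0.01 for ALDOA, 0.40 for PGK1, -0.38 for ENO1 and 0.02 for LDHB. Of the hypoxia genes in the stress list, VEGFA, ADM and BNIP3 were not called on either scale. VEGFA had a centred difference of -0.25, ADM of -0.09 and BNIP3 of -0.40. These genes are examples from that list, in which 3 of 32 members were higher and 4 lower only after centring. A part of hypoxia in the glycolysis differences was not tested.

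**Figure D4:**
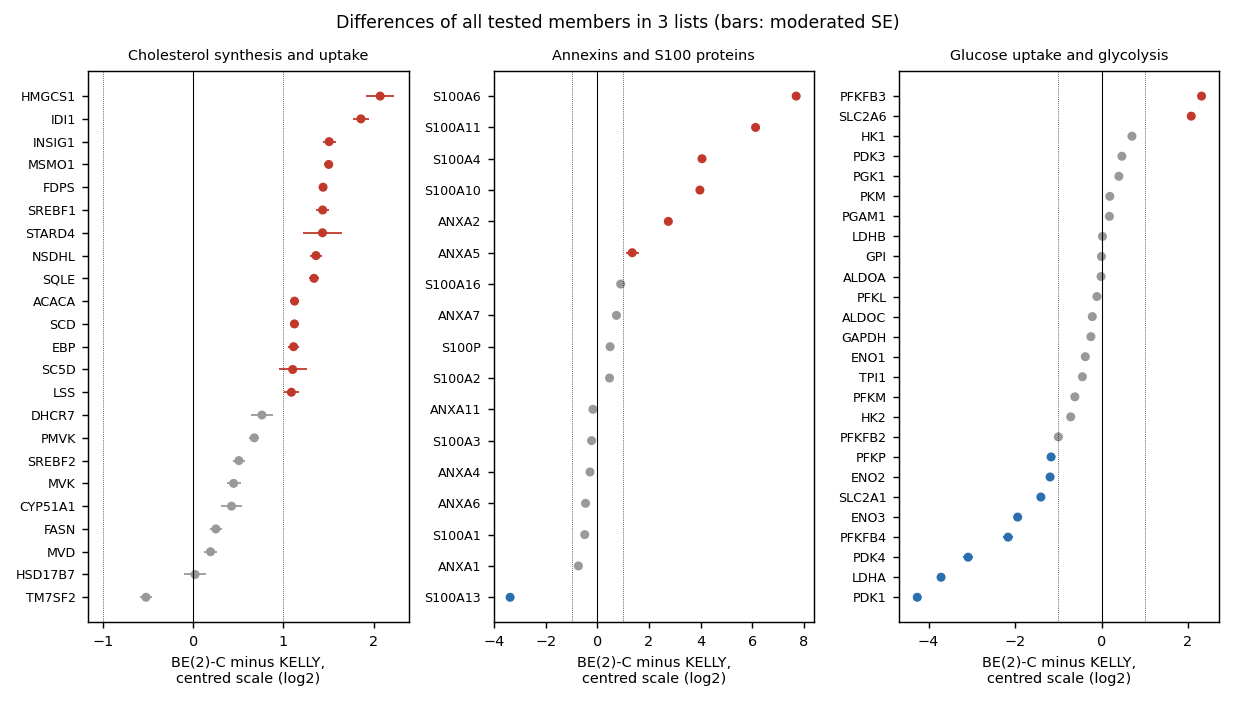
Centred log2 difference (horizontal axis, BE(2)-C minus KELLY, bars are the SE of the limma fit) of every tested member of 3 lists; red points are called higher, blue points called lower and grey points not called, with dotted lines at the threshold of 1. All cholesterol genes but TM7SF2 lie right of 0, the S100 genes spread from -3.39 (S100A13) to 7.71 (S100A6), and LDHA and PDK1 lie at the lower end of glycolysis.

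In the growth machinery that MYCN is known to drive, few genes reached the threshold. Of 33 ribosome biogenesis genes, 0 were called in either direction after centring, and their centred differences ran from -0.78 to 0.96 with a median of -0.07. Of 50 respiratory chain genes, 0 were called, with a median of 0.15. As deposited, 10 of the 33 and 30 of the 50 were called higher, against 39.2% of all tested genes. Of 51 cytosolic ribosomal protein genes, 1 was lower only after centring, and the median was -0.29. By unadjusted p under 0.05, however, 10021 of all tested genes differed after centring. Of 44 mitosis and DNA replication genes, 2 were higher and 1 lower only after centring, with a median of 0.26. The higher ones were the checkpoint kinase BUB1 (1.25) and the transcription factor FOXM1 (1.14).

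Genes that govern entry into the cycle were called in both directions. Of 22 G1 cyclins and inhibitors, 4 were higher and 1 lower, with a median of 0.41. CDKN2A, which encodes the inhibitor p16 and the protein ARF, had 1779, 1682 and 1681 in BE(2)-C and 154, 167 and 164 in KELLY. Its neighbour CDKN2B was higher at 1.17 but dim, with 63.7 ± 6.76 in BE(2)-C and 14.3 ± 1.04 in KELLY. CCND1, the cyclin that partners CDK4 and CDK6, had 6142 ± 259 in BE(2)-C and 1260 ± 57.0 in KELLY, and the phosphatase CDKN3 had 3329 ± 244 in BE(2)-C and 554 ± 29.0 in KELLY (SD over 3 arrays each). The inhibitor CDKN1C, which is imprinted, was lower on both scales at -2.75. Of 26 BCL2 family and death receptor genes, 1 was higher and 6 lower, 3 on both scales. The death receptor gene TNFRSF10B had 141, 137 and 140 in BE(2)-C and 1143, 1142 and 1261 in KELLY, a difference of -3.99. The higher one was the BH3-only gene BCL2L11 at 1.04, a call by its brightest probe set. After centring, 10 dimmer probe sets of BCL2L11 had the opposite sign, though each was brighter in BE(2)-C as deposited. With averaged probe sets 0 members of the list were higher. In the other direction, the BH3-only gene HRK (-1.98) and the caspase CASP6 (-2.45) were lower on both scales.

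Drug handling genes had 6 of 32 members higher and 4 lower, 2 on both scales. ABCB1, the multidrug efflux pump P-glycoprotein, had 1480, 1405 and 1303 in BE(2)-C and 84.6, 122 and 94.7 in KELLY, a difference of 2.88, and BE(2)-C was the highest of the 5 lines. The microsomal glutathione transferase MGST1 had 120, 113 and 88.5 in BE(2)-C and 980, 1064 and 1096 in KELLY, a difference of -4.2. The efflux pump ABCC3 was higher at 2.44 by its brightest probe set, but had -0.22 when probe sets that may match related transcripts were left out. Metallothionein MT2A, which binds heavy metals, was the most different of 32 stress genes, of which 3 were higher and 4 lower only after centring. It had 1872, 1769 and 1695 in BE(2)-C and 77.5, 66.2 and 84.0 in KELLY.

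Imprinted and germline genes were lower in BE(2)-C where they were called at all, with few exceptions. Of 17 imprinted genes, 1 was higher and 6 lower. After PEG3 and MEST came GRB10, an adaptor of insulin signalling, with 64.6, 52.3 and 52.7 in BE(2)-C and 917, 938 and 1003 in KELLY. PPP1R9A (-3.91) and MKRN3 (-2.97) were lower as well, and NDN, from the Prader-Willi region, was higher at 1.96. The imprinted genes DLK1 (-0.18), GNAS (-0.37) and PEG10 (-0.26) were not called. Of 13 germline genes that passed the filter, from 28 named, 1 was higher and 6 lower. PRAME had 298, 233 and 234 in BE(2)-C and 2494, 2601 and 2450 in KELLY, and TEX15 had 47.4, 44.4 and 42.7 in BE(2)-C and 567, 557 and 553 in KELLY. TDRD1, of the piRNA pathway, was the exception, with 896, 771 and 727 in BE(2)-C and 28.0, 24.6 and 27.6 in KELLY. Oncofetal genes had 5 of 10 lower after centring, LIN28B (-1.06) and TRIM71 (-1.78) among them, and none of the 5 was lower as deposited. With the probe sets of a gene averaged, 1 was lower. LIN28B, the inhibitor of let-7 maturation, had 1432 ± 58.5 in BE(2)-C and 1581 ± 29.6 in KELLY (SD over 3 arrays each).

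Surface antigens and immune genes included targets that are studied for therapy. Of 18 surface antigen and GD2 synthesis genes, 3 were higher and 1 lower. The lower one was CD24, an adhesion glycoprotein, with 868, 889 and 798 in BE(2)-C and 6517, 7094 and 7006 in KELLY. GPC3 (2.33), SLC6A2 (1.71) and L1CAM (1.34) were higher. GPC2, a glypican of neuroblastoma, had 247 ± 17.1 in BE(2)-C and 259 ± 8.95 in KELLY, and CD276 had 783 ± 28 in BE(2)-C and 388 ± 11.9 in KELLY (SD over 3 arrays each). Neither was called after centring, and CD276 was higher as deposited. Antigen presentation genes had 4 of 21 higher and 1 lower only after centring, with a median of 0.51. TAP2, a peptide transporter, had 430, 399 and 403 in BE(2)-C and 45.2, 38.0 and 38.5 in KELLY, and TAPBP (1.34), HLA-E (1.68) and the immunoproteasome subunit PSMB8 (1.1) were higher as well. TAPBP had 4 dimmer probe sets of the opposite sign after centring, each of them brighter in BE(2)-C as deposited. TAP1, the partner of TAP2, had -0.07 and was dim in both lines. Of 35 interferon and innate sensing genes, 3 were higher and 1 lower only after centring. OAS3 had 1044, 920 and 835 in BE(2)-C and 18, 27.4 and 27.1 in KELLY, and no other member of that list called higher exceeded 1.43.

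Of 30 markers of other cell types named on the array, 18 were tested, 6 higher and 1 lower. The sum of the 30 intensities ran from 4260 to 4450 on the BE(2)-C arrays and from 1536 to 1636 on the KELLY arrays, and without LUM from 3220 to 3348 in BE(2)-C and from 1520 to 1616 in KELLY. In BE(2)-C 15 of the 30 were under the intensity limit, and in KELLY 25, against 38.5% of all genes in BE(2)-C and 45.9% in KELLY. None was read at 0. Some of the 30 were dim in both lines. PTPRC had 13 in BE(2)-C and 12.8 in KELLY, ALB 22.8 in BE(2)-C and 20.7 in KELLY, and CDH1 29.0 in BE(2)-C and 27.7 in KELLY. Others were not, and LUM had a mean of 1055 in BE(2)-C and 16.5 in KELLY. The fibroblast collagen COL1A1 had 85.7 in BE(2)-C and 56.5 in KELLY. The higher ones were LUM, the endothelial cadherin CDH5 (2.21), DCN, S100B, KRT19 (1.47) and PDGFRB, and the lower one was the pigment gene PMEL (-2.62). Their part in the differences of the matrix list was not tested.

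Neighbouring genes often differed together. On chromosome 9, 122 of 507 tested genes were higher in BE(2)-C, or 24.1%, and 33 lower, and on chromosome 14, 59 of 421 were higher. On chromosome 18, 47 of 179 genes were lower, or 26.3%, and 4 higher. A running median of the centred difference over 15 neighbouring genes was chosen after values had been seen and is given as a description. It reached 0.7 in size in 61 runs of neighbouring windows, of which 8 spanned at least 20 windows. Of all windows, 2.35% stood at 0.7 or above and 1.62% as far below 0. Some of the runs adjoin or share genes. The highest peak, 1.76, lay on chromosome 7 between POP7 and CAV2, where 33 of 69 genes were higher and the median was 0.98. Set against SK-N-AS, SH-SY5Y and NGP as a mean, the median there was 0.07 in BE(2)-C and -1.01 in KELLY. RELN and VGF lie in this stretch, with differences of 6.65 and 3.01. On chromosome 11 between RNF26 and NFRKB, 26 of 52 genes were higher, with BE(2)-C at 0.78 from the other 3 lines and KELLY at -0.13. On chromosome 18 between ESCO1 and SETBP1, 18 of 50 genes were lower, with BE(2)-C at -0.67 from the other lines and KELLY at 0.19. DSG2 lies in this stretch. On chromosome 1 between SGIP1 and ADGRL2, 10 of 34 genes were lower, with BE(2)-C at -0.72 and KELLY at -0.05. The 3 long runs of chromosome 9 held 25 of 48, 25 of 46 and 21 of 41 higher genes, and in each BE(2)-C lay above and KELLY below the other lines. The run of chromosome 14, from CYP46A1 to XRCC3, held 13 higher genes of 34, with BE(2)-C at 0.24 and KELLY at -0.47. Whether these stretches differ in copy number between the lines was not tested.

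**Figure D5:**
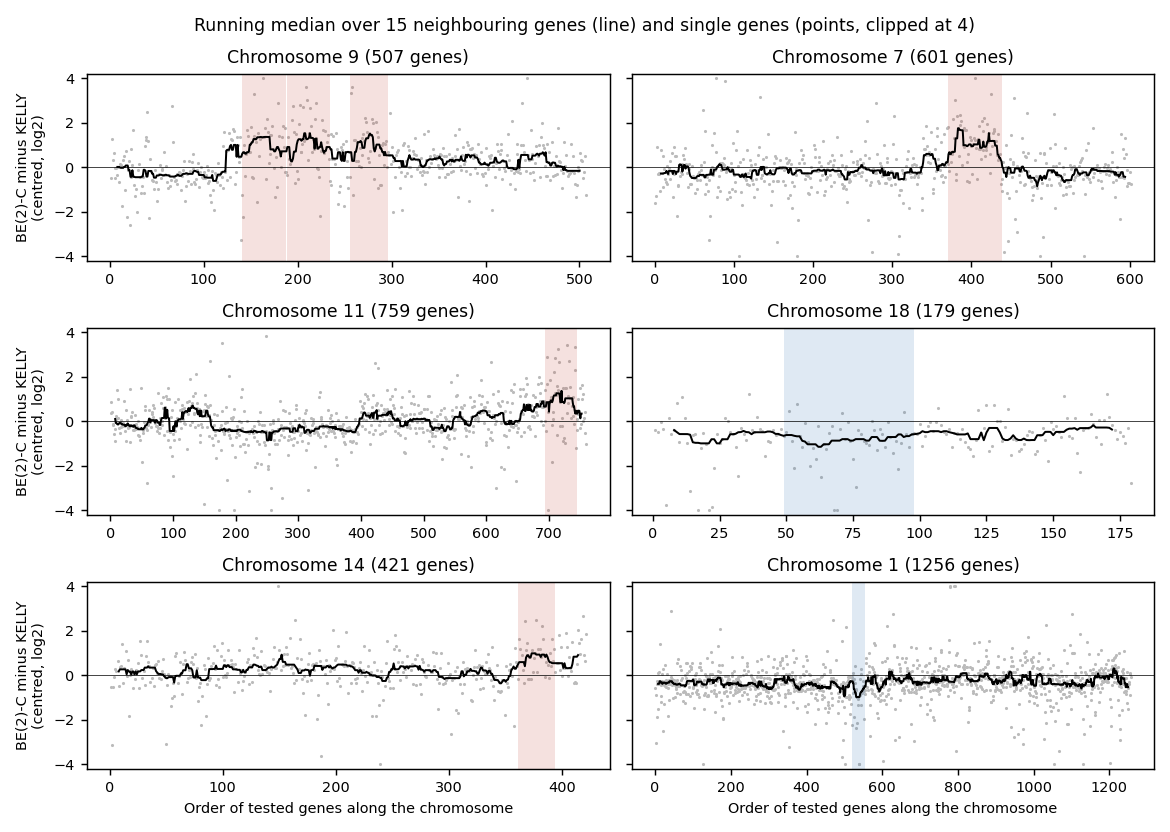
Running median of the centred difference (line, log2, BE(2)-C minus KELLY) over 15 neighbouring tested genes, in their order along 6 chromosomes, with single genes as grey points clipped at 4; shaded stretches are the 8 longest runs, red for higher and blue for lower in BE(2)-C. The line rises above 0 over much of chromosome 9 and over stretches of chromosomes 7, 11 and 14. It falls below 0 on chromosome 18 and over the shaded stretch of chromosome 1. Shorter runs in either direction are not shaded.

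Set among all 5 lines, a difference between BE(2)-C and KELLY included genes at the extreme of either line. Of the 1064 genes called higher, BE(2)-C had the highest centred mean of the 5 lines in 594, or 55.8%, KELLY the lowest in 524, or 49.2%, and both held in 237. Of the 425 lower on both scales, BE(2)-C was the lowest in 251, or 59.1%, KELLY the highest in 194, or 45.6%, and both held in 98. Over all tested genes BE(2)-C was the highest in 18.1% and the lowest in 22.6%, and KELLY the highest in 20.9% and the lowest in 14.5%. The choice of the genes by this contrast raises these shares, so they are given as a description. The median absolute centred difference between BE(2)-C and KELLY was 0.441, the sixth of the 10 pairs of lines in rising order, from 0.329 between NGP and KELLY to 0.574 between SK-N-AS and KELLY.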

How the data were processed

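Values are the intensity that the authors deposited for every probe set of an array, on a linear scale. The submitters' processing notes name MAS5. For its version, background correction and normalization, the entry is: not given in the sources used here. Of 49494 probe sets, 45277 named 1 gene in the platform annotation; each of 18244 genes was represented by its brightest probe set, judged by the mean of the 15 arrays. The filter kept the 12721 genes whose mean in the brightest line reached the median of the table, 6.35 in log2 units or an intensity of 80.6. Values were transformed as log2(intensity + 1), with a pseudocount of 1, and the median of the tested genes was subtracted array by array; the deposited scale was fitted beside it. limma 3.58.1 in R 4.3.3 fitted 1 mean per line to the 15 arrays with eBayes and its trend option, and p-values were adjusted by Benjamini-Hochberg over all tested genes. The procedure was tested on simulated data. For the RNA level, the test was an exact permutation of the arrays, two-sided.

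Genes named are the 15 with the largest difference each way among those called on both scales, up to 5 called members each way of each list and any list member by its values, and MYCN, MYC, MYCL, ALK, HAND2, GATA3, S100A6 and CYRIA. The genes that give the ends of the runs of neighbours were chosen after their values were seen. Lists and members were chosen with earlier results of these data known, and so nothing here is independent support of an earlier pattern. Same-numbered arrays of BE(2)-C and KELLY did not deviate together from their line means, with correlations of -0.060, -0.057 and 0.020, so the numbers were not taken as pairs. Alternatives were tried for the scale, the normalization, the filter, the pseudocount, a floor, the choice of probe set, the arrays fitted and the threshold.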

Additional observations from a re-analysis of the deposited data

How the results depend on the processing

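The counts of called genes depended mainly on the scale and the threshold. The 1064 higher calls became 4985 as deposited, 4453 with arrays shifted to equal ERCC medians, 1654 without the filter on dim genes, 4351 without a fold threshold and 244 at an absolute log2 difference of at least 2. The 1152 lower calls became 425 as deposited, 445 with equal ERCC medians, 5499 without a fold threshold and 388 at the higher threshold. Under the other alternatives the counts stayed between 822 and 1064 for higher and between 791 and 1152 for lower calls, both lows from the mean of all probe sets of a gene. Leaving out each array in turn gave 1048 to 1074 higher and 1143 to 1175 lower calls. With the replicate number as a block (replicate block) they were 1064 and 1152, and no call among the genes of the naming rule changed. Cyclic loess normalization, chosen after seeing the data, gave 1051 and 1027, of which 904 and 933 were shared with the centred scale. The difference in RNA level of 0.84 was 0.58 over all genes without a filter, 0.90 with all ERCC probe sets and 0.41 with the hybridization controls, and 0.81 to 0.89 leaving out single arrays. Of the 279 genes that the naming rule picks by their calls or names always, 219 kept their side of the threshold as deposited, 58 fell short of it and 2 newly passed it. With the probe sets of a gene averaged, 207 kept their side and 52 fell short. Among called genes of that set, the direction turned for UNC5C (-0.84, mean of all probe sets), GBP2 (-0.55, floor of 32), ABCC3 (-0.22) and PFKFB3 (-0.18), both of the last without probe sets marked as matching several transcripts; for these the cause was not tested. UNC5C had a further probe set at 79.7 in BE(2)-C and 367 in KELLY. Of 561 other probe sets of called named genes, 70 had the opposite sign after centring. Most of those of genes called higher were still brighter in BE(2)-C as deposited. Besides UNC5C, the genes called higher with a probe set dimmer in BE(2)-C as deposited were PDGFRA, SAT1, DCN and MSMO1. With 3 arrays per line and no detection calls used, genes near the background are measured least well.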

Other observations

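Lists outside the groups described above also held single genes that differed. Of 28 genes of arginine, glutamine and polyamine metabolism, 3 were higher and 5 lower, 1 of them on both scales, and 0 were higher with the probe sets of a gene averaged. SAT1, which acetylates spermidine and spermine for export, had 615, 543 and 558 in BE(2)-C and 89.8, 93.4 and 105 in KELLY, a centred difference of 1.65. AZIN1, which frees ornithine decarboxylase from its inhibitor antizyme, was higher at 1.29, and ODC1, the decarboxylase itself, was lower only after centring at -1.15. The glutamine transporter SLC38A5 was lower on both scales at -2.46. Of 30 genes of nucleotide, serine and one-carbon synthesis, 0 were higher and 3 lower, 2 on both scales. The glycine cleavage genes AMT (-2.25) and GLDC (-2.21) were lower on both scales, and MTHFD2 (-1.11) only after centring.

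Of 14 genes of iron handling and ferroptosis, 1 was higher and 3 lower, none of the 3 on the deposited scale. ACSL4, which loads polyunsaturated fatty acids into the lipids that are oxidized in ferroptosis, had 1203, 1154 and 1028 in BE(2)-C and 173, 159 and 151 in KELLY, a centred difference of 1.89. SLC7A11, the cystine transporter that feeds glutathione synthesis, was lower after centring at -1.40. Of 28 polycomb, DNA methylation and chromatin genes, 1 was higher and 4 lower only after centring. SMARCA2, a remodelling ATPase, had 103, 87.5 and 108 in BE(2)-C and 21.3, 19.5 and 22.1 in KELLY, a centred difference of 1.27. Its 4 dimmer probe sets of the opposite sign after centring were brighter in BE(2)-C as deposited. EZH2, the polycomb methyltransferase, was lower only after centring at -1.22. Of 17 proposed suppressor genes on 1p36, 0 were higher and 3 lower, namely CASP9 (-1.54), CASZ1 (-1.46) and CAMTA1 (-1.24), none of them on the deposited scale, and 0 were lower with averaged probe sets. Over all tested genes the shares were 8.36% higher and 9.06% lower. On chromosome 1 as a whole they were 3.82% higher and 12.1% lower. The median centred difference was -0.33 on chromosome 1 and -0.48 in the 1p36 list.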
